A study of Mus musculus with 2 samples.

Results

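The genes of Nodal and activin signalling were followed across 5 populations of mouse pluripotent and differentiating cells. They were chosen by symbol from the table of raw counts: Nodal, Inhba, Tdgf1, Cfc1, Lefty1, Lefty2, Cer1 and Smad7, which are 8 of 33963 genes. All 8 symbols were present in the table. Primed mouse epiblast stem cells (mEpiSCs) of the Oct4GIP line, which carries a GFP and puromycin resistance transgene driven by Oct4 regulatory sequence, were kept in FGF2 and activin A and plated on mouse embryonic fibroblast (MEF) feeders 1 day before reversion (primed). Once reversion began, a basal medium with LIF (leukemia inhibitory factor) and AICAR, which activates AMPK, was used until day 8 (d8) or day 16 (d16). Cells of day 16 were carried through 10 further passages in 2iL (d16+10p), which combines LIF with blockers of MEK and GSK3. Naive mouse embryonic stem cells of a different line, with a Rex1-GFP reporter, were the naive reference, so the line and the naive state cannot be told apart between naive and primed. All cells were labelled 129/Ola. Each population was 1 tagged sample in 1 pooled single-cell library without replicates. Differences are given with counting error only, no test was made, and none has a replicate check.

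Nodal and the activins are ligands of the TGF-beta family. They act through activin receptors and the transcription factors SMAD2, SMAD3 and SMAD4, often with FOXH1 at the target gene. Nodal also needs a co-receptor of the EGF-CFC family, Cripto (encoded by Tdgf1) or Cryptic (encoded by Cfc1), whereas activin A, a dimer of the Inhba product, does not. The pathway induces its own antagonists: Lefty1 and Lefty2 block Nodal at its receptors and co-receptor, Cerberus (encoded by Cer1) binds Nodal outside the cell, and SMAD7 blocks the receptors inside the cell. In the early mouse embryo this pathway maintains the epiblast and patterns mesoderm and endoderm, and primed cells depend on it in culture.

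Positions are those of GRCm38 by the GENCODE M21 annotation. Nodal is at chr10:61417972-61425338, Inhba at chr13:16011851-16031621, Tdgf1 at chr9:110939603-110946158, Cfc1 at chr1:34535648-34544313 and Cer1 at chr4:82881751-82885148. Lefty2 (chr1:180893108-180899103) and Lefty1 (chr1:180935022-180938400) lie on the same strand. Of the 50-base stretches of the Lefty1 transcripts, 17.9% are also in Lefty2, and of those of Lefty2 11.95% are in Lefty1, so reads from these stretches could be counted for either. Cfc1 overlaps Prss40 on the opposite strand, where 24.3% of its 50-base stretches lie, and whether the counting used strand is not given in the sources used here. Tdgf1 shares 8.86% with the processed pseudogene Tdgf1-ps1, which had at most 2.51 CPM in any cluster of 100 or more cells. These shares are from GENCODE M21 and not from the transcript set that the authors mapped to.

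The 250 bases before the start of 3 members are shown because Tdgf1 had the widest range of levels between both sets of d16 cells and because Cfc1 and Cer1 were found in the same cells. They are RefSeq sequence of GRCm38.p6, read 5′ to 3′ on the strand of the gene, from chr9:110946159-110946408 for Tdgf1, chr1:34535398-34535647 for Cfc1 and chr4:82885152-82885401 for Cer1. Capitals mark matches, on either strand, to a FOXH1 motif (TGTNNATT) or to the short SMAD box (CAGAC).
Tdgf1: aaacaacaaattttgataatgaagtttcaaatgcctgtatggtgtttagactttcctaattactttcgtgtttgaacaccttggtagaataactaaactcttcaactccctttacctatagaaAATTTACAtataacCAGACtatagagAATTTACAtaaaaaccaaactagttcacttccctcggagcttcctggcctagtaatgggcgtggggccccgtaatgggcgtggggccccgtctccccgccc
Cfc1: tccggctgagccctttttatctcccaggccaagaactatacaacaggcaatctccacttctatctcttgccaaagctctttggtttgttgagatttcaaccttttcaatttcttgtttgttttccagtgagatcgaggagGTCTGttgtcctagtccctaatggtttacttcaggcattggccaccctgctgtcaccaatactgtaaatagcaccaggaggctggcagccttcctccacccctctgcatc
Cer1: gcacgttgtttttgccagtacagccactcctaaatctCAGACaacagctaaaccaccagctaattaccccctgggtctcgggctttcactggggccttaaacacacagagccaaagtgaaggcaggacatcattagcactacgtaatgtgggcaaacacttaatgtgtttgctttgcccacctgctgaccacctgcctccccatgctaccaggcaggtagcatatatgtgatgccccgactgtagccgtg

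The Tdgf1 sequence held 2 FOXH1 matches, 127 and 101 bases before the start, with 1 SMAD box between them at 113 bases. Of 32851 mouse promoter windows of the same length, 10.9% held at least 1 FOXH1 match and 42.2% at least 1 SMAD box. Cfc1 and Cer1 each held 1 SMAD box and no FOXH1 match, and the windows of Nodal and Inhba held neither. A match is only a match of letters and was not tested for binding.

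The table held 1826 primed, 9627 d8, 4315 d16, 1151 d16+10p and 801 naive cells, with medians of 10185 (d16) to 21551 (d16+10p) reads per cell. Levels are CPM, the summed reads of a gene per 1e+06 summed reads of a group of cells, with an exact 95% Poisson interval. They are compared within a gene, not between genes, because they are not scaled by length. A summed level also moves with the mix of cells behind a tag, and this mix differed widely. Of the naive cells 70.2% and of the d16+10p cells 81.3% fell in clusters called Pou5f1-high (with a high level of Pou5f1, which encodes OCT4), against 25.8% of primed, 0.312% of d8 and 29.5% of d16 cells. Values are therefore also given for the home cluster of each population, the Pou5f1-high cluster in which its tag was most enriched: cluster 12 for primed (418 cells), 5 for d16 (1195), 7 for d16+10p (879) and 11 for naive cells (518). The d8 population had none. Some cells went against their tag: 53 naive and 62 d16+10p cells were in cluster 2, which held mainly d8 and primed cells. Those naive cells had 140 CPM of the naive marker Dppa5a, against 2816 CPM in the naive home cluster. The paper lists fewer collected primed, d8, naive and d16+10p cells than carried these tags. It also took the Oct4-negative cells of its primed sample to be MEF feeder cells, whereas all cells with that tag are called primed here. Whether cells outside the home clusters carried the right tag was not tested, so contrasts of tags within those clusters are descriptions.

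The background from free RNA was gauged in the macrophage-like cluster 8, in which all 10 macrophage markers were raised. Each cell was thinned to 5000 reads, and 4.58% of these cells then had a read of Nodal, 22.8% of Lefty1, 16.8% of Tdgf1, 2.77% of Lefty2 and 0.965% each of Cfc1 and Cer1. The median depth was 17468 reads in this cluster. Shares near these values were read as background.

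The ligands came first. Nodal had 57.01 CPM (54.2 to 59.9) in primed, 43.4 (42.5 to 44.4) in d8, 36.2 (34.6 to 37.8) in d16, 52.5 (49.8 to 55.3) in d16+10p and 41.1 (38.1 to 44.3) in naive cells. The order was primed, d16+10p, d8, naive and d16, and the intervals overlapped for primed and d16+10p cells and for d8 and naive cells. The share of thinned cells with a Nodal read was 15.9% in primed, 14.2% in d8, 12.1% in d16, 21.6% in d16+10p and 15.3% in naive cells, all above the 4.58% of the macrophage-like cells. Without thinning, the shares ran from 19.5% in d16 to 48.7% in d16+10p cells. In the home clusters Nodal was at 61.8 CPM in primed, 68.7 in d16, 53.2 in d16+10p and 42.5 in naive cells, so the Pou5f1-high cells of d16 were at the top of that order, whereas the whole d16 population was lowest of the 5.

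Inhba, which encodes the subunit of activin A, had 138 CPM (134 to 143) in primed, 482 (479 to 485) in d8, 121 (118 to 124) in d16, 81.0 (77.6 to 84.6) in d16+10p and 89.9 (85.5 to 94.5) in naive cells. In the home clusters it was at 70.0 CPM in primed, 78.3 in d16, 70.7 in d16+10p and 68.5 in naive cells. In 10 of the 15 clusters with 100 or more cells it was between 69.2 and 84.4 CPM, the naive home cluster included. The share of thinned cells with an Inhba read was 26.7 to 29.8% in the home clusters. In the macrophage-like cluster it was 44.9%, with Inhba at 275 CPM. Macrophage-like cells can express Inhba, so that cluster gives no background for it. Whether Inhba in the home clusters was above background could therefore not be told. The high level at d8 came mostly from 1 cluster, described with the d8 cells.

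**Figure D1:**
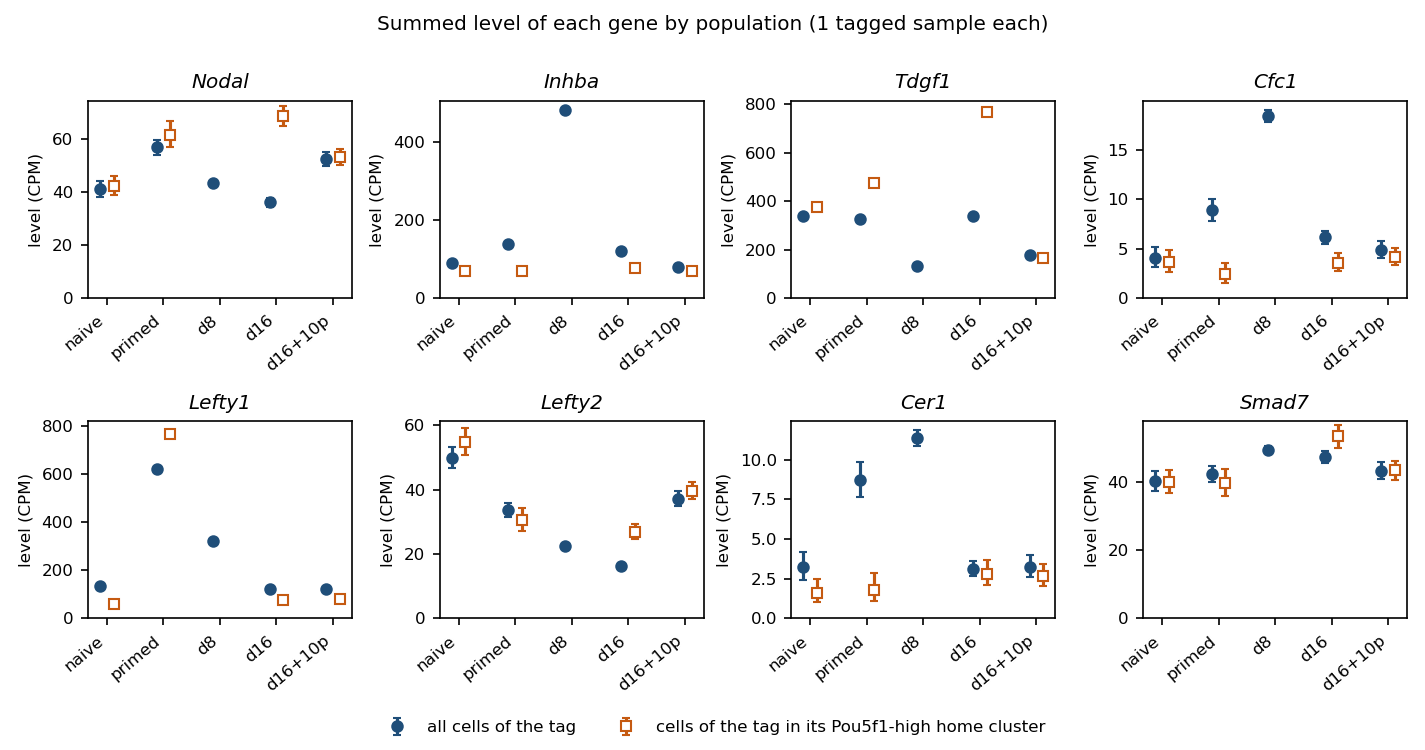
Level of each gene in CPM (vertical axes, from 0) in the 5 populations, for all cells of a tag (filled circles) and for its cells in the Pou5f1-high home cluster (open squares; d8 has none), with 95% counting intervals and no replicates. Lefty1 was at 767.5 CPM in the primed home cluster and at 58.3 to 80.3 in the other 3, while Inhba was at 68.5 to 78.3 CPM and Smad7 at 39.6 to 53.4 CPM in the home clusters.

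Of the co-receptors, Tdgf1 had 326 CPM (319 to 333) in primed, 134 (132 to 136) in d8, 339 (334 to 344) in d16, 177 (172 to 182) in d16+10p and 341 (332 to 350) in naive cells. Naive and d16 did not differ beyond their intervals. Thinned cells with a Tdgf1 read made up 46.2% of primed, 28.2% of d8, 41.7% of d16, 45.7% of d16+10p and 65.2% of naive cells. In the home clusters the order was another one, with 769 CPM in d16, 478 in primed, 375 in naive and 167 in d16+10p cells.

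Cfc1 was low in every population, at 8.86 CPM (7.79 to 10.0) in primed, 18.4 (17.8 to 19.0) in d8, 6.14 (5.51 to 6.83) in d16, 4.84 (4.04 to 5.76) in d16+10p and 4.06 (3.16 to 5.13) in naive cells. Its home cluster levels were 2.41 to 4.15 CPM, which is near the 2.95 CPM of the macrophage-like cluster. The higher levels of d8 and primed cells were thus not found in the Pou5f1-high primed cells.

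Among the antagonists, Lefty1 differed most between naive and primed cells. It had 621 CPM (612 to 631) in primed, 321 (319 to 324) in d8, 124 (121 to 127) in d16, 122 (118 to 126) in d16+10p and 136 (130 to 141) in naive cells. The 53 naive cells in cluster 2 held 38.2% of all naive Lefty1 reads, and the 62 d16+10p cells there held 31.1% of the reads of their tag. In the home clusters Lefty1 was at 767.5 CPM (750 to 785) in primed, 78.7 (74.8 to 82.9) in d16, 80.3 (76.6 to 84.1) in d16+10p and 58.3 (54.2 to 62.6) in naive cells. The share of thinned cells with a read was 77.8% in the primed home cluster and 22.7, 22.1 and 23.3% in the naive, d16 and d16+10p home clusters. The latter are at the 22.8% of the macrophage-like cells, so Lefty1 was not detectable above background in the naive, d16 and d16+10p home clusters.

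Lefty2 followed another order. It was at 33.5 CPM (31.4 to 35.7) in primed, 22.4 (21.7 to 23.1) in d8, 16.1 (15.1 to 17.2) in d16, 37.2 (34.9 to 39.6) in d16+10p and 49.9 (46.6 to 53.3) in naive cells. In the home clusters it was at 54.8 CPM in naive, 39.5 in d16+10p, 30.6 in primed and 26.9 in d16 cells. The naive home cluster was thus highest for Lefty2, while its Lefty1 was at background. Thinned cells with a Lefty2 read made up 16.0% of the naive home cluster and 7.33% of the primed one, both above the background of 2.77%.

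Cer1 was at 8.72 CPM (7.66 to 9.89) in primed, 11.4 (10.9 to 11.9) in d8, 3.13 (2.69 to 3.64) in d16, 3.24 (2.59 to 4.01) in d16+10p and 3.25 (2.45 to 4.22) in naive cells. Its home cluster levels were 1.62 to 2.79 CPM, near the 2.63 CPM of the macrophage-like cluster. Smad7 (chr18:75367529-75395935), the intracellular inhibitor, varied least, from 40.2 CPM (37.3 to 43.4) in naive through 42.3 in primed, 43.3 in d16+10p and 47.4 in d16 to 49.5 CPM (48.4 to 50.5) in d8 cells. Its intervals in naive, primed and d16+10p cells overlapped. The share of thinned cells with a Smad7 read was 15.2% (naive) to 21.1% (d16) in the home clusters and 14.1% in the macrophage-like cluster.

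Comparing primed with naive cells asks what separates the start of the reversion from its target. Lefty1 was 4.57-fold higher in primed cells (4.38 to 4.78) and 13.2-fold (12.2 to 14.2) between the home clusters. A gene was called past 2-fold where the log2 ratio of CPM, with a pseudocount of 1 CPM, was at least 1 in size. The genes considered reached 10 CPM in one of the groups or both and had 20 or more reads in all. Folds are given without the pseudocount. Of the 8 members 6 had these reads, 1 of the 6 was higher past 2-fold and 0 were lower, against 3.55% of 10549 genes higher and 4.69% lower. The median log2 ratio of all 8 members, with Cfc1 and Cer1 below the filter included, was 0.54, against 0.08 over all genes tested. Nodal was 1.39-fold (1.27 to 1.52) and Inhba 1.54-fold (1.45 to 1.63) higher in primed cells, while Lefty2 was 1.49-fold (1.35 to 1.63) lower. The Inhba ratio was 1.02 (0.925 to 1.13) between the home clusters, and 37.8% of the primed Inhba reads were in 71 cells of the fibroblast-like cluster 0. Cfc1 and Cer1 were below the level filter. Their ratios were 2.18 (1.67 to 2.89) and 2.68 (2.00 to 3.66) in favour of primed over all cells, and between the home clusters Cfc1 was 1.503-fold (0.901 to 2.57) higher in naive and Cer1 1.12-fold (0.561 to 2.20) higher in primed cells.

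The other genes of the pathway were described from a list of 39 ligands, receptors, effectors, inhibitors and targets. Of the 30 that passed the filter, 6 were higher in primed cells past 2-fold and 2 lower, and the median log2 ratio was 0.56 against 0.08 over all genes tested. Fgf8 (6.10-fold, at 41.4 against 6.78 CPM), the activin-binding inhibitor Fst (3.61-fold) and the mesoderm factor T (3.34-fold) were among those higher in primed cells. The 2 lower genes were Gdf3 and Pcsk6. Gdf3, a ligand that works with Nodal, was at 5.70 CPM in primed and 73.9 in naive cells, a 12.95-fold difference (10.97 to 15.4). Pcsk6, a convertase that cleaves Nodal, was at 5.49 and 34.9 CPM.

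Comparing d8 with primed cells asks how the pathway stood after 8 days in basal medium with AICAR and LIF. The change of medium also ended the supply of FGF2 and activin A, the ligand of this pathway. Its part cannot be told apart from that of AICAR and LIF. Of 8 members, 1 was higher past 2-fold, Inhba, and 1 lower, Tdgf1, against 3.53% of 10403 genes higher and 3.28% lower. Their median log2 ratio was -0.08, against -0.02 over all genes tested. Inhba was 3.49-fold higher (3.38 to 3.6) and Tdgf1 2.43-fold lower (2.37 to 2.49). Lefty1 was 1.93-fold lower (1.90 to 1.97), Lefty2 1.49-fold lower and Nodal 1.31-fold lower, while Cfc1 was 2.08-fold higher (1.82 to 2.37), Cer1 1.31-fold and Smad7 1.17-fold. Cfc1 was past 2-fold without the pseudocount but not with it, and its call was gained with TMM scaling, with thinning to 5000 reads and without the 5% of cells with most reads. With the cells rather than their reads given equal weight, Tdgf1 was no longer past 2-fold and Cfc1 was. Against the primed home cluster in place of all primed cells, 5 members were past 2-fold: Inhba (6.89-fold), Cfc1 (7.62-fold) and Cer1 (6.29-fold) higher, and Tdgf1 (3.56-fold) and Lefty1 (2.39-fold) lower. Far more genes were past 2-fold in that setting, 14.8% of 10401 higher and 8.69% lower.

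**Figure D2:**
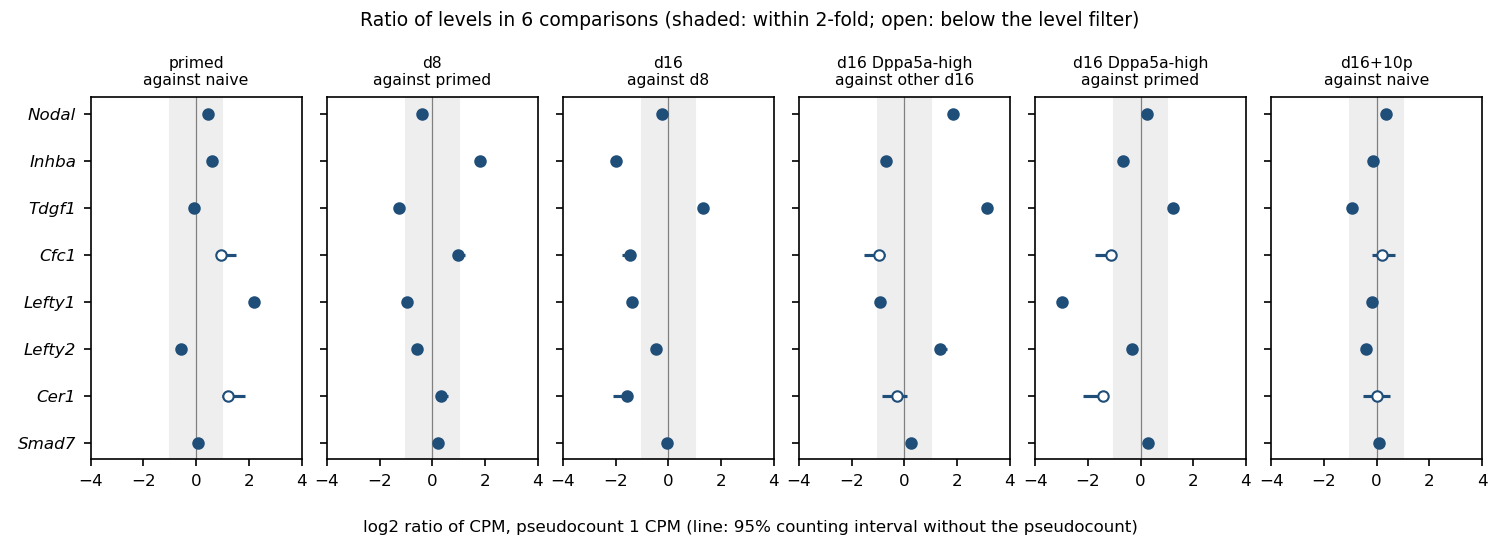
Log2 ratio of CPM of the 8 genes (rows) in 6 comparisons (panels), with a pseudocount of 1 CPM and a 95% counting interval; the shaded band is within 2-fold and open circles are below the level filter. Tdgf1 lies outside the band in 4 panels, and no gene does in the panel of d16+10p against naive cells.

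Of the 39 listed genes 30 were tested at d8, and 2 were higher past 2-fold and 1 lower, with a median log2 ratio of 0.21 against -0.02 over all genes tested. Inhbb, which encodes the subunit of activin B, was 2.49-fold higher (77.1 against 31.0 CPM), and Fgf8 was 2.49-fold lower.

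The d8 cells were mixed, and the members were spread over their clusters unevenly. The clustering left the 8 members out, so that their levels did not shape it, but genes that vary with them did. Levels by cluster are therefore descriptions. Cluster 0 was fibroblast-like by 4 of 8 markers, with 3 of 6 smooth muscle markers also raised. It held 22.6% of the d8 cells and 80.7% of their Inhba reads. Its Inhba level was 1548 CPM in d8 cells, 1614 in the 71 primed cells and 937 in the 61 d16 cells it also held. The next cluster with 100 or more cells, the macrophage-like cluster 8, was at 275 CPM. Primed cells had been plated on fibroblast feeders, and the paper took the Oct4-negative cells of its primed sample to be feeder cells. Whether cluster 0 holds feeder cells was not tested.

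Nodal, Tdgf1 and both Lefty genes were in other d8 cells. Cluster 1, epithelial-like by 5 of 7 markers, held 20.8% of the d8 cells and 46.3% of their Nodal reads, 32.0% of their Lefty1 reads and 29.9% of their Tdgf1 reads. Cluster 2 was not named by the markers. Its leading genes outside the members included Fgf15 and Fgf8, and its Pou5f1 level was 118 CPM. It held 15.1% of the d8 cells, with 40.3% of the Lefty1, 46.8% of the Lefty2, 38.1% of the Tdgf1 and 23.6% of the Nodal reads. Over all populations cluster 2 had the highest level of Nodal (90.3 CPM, with 86.0 in cluster 1), of Lefty1 (1153 CPM, with 767 in the primed home cluster) and of Lefty2 (88.1 CPM, with 53.7 in the naive home cluster).

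**Figure D3:**
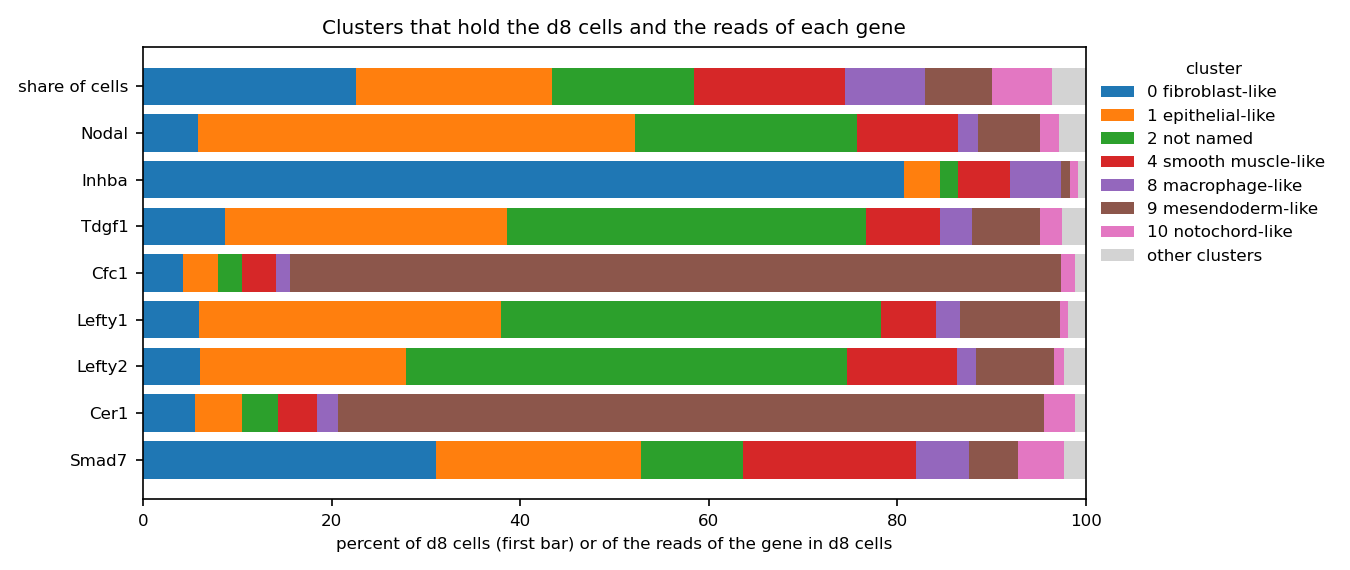
Percent of d8 cells in each cluster (top bar) and percent of the d8 reads of each gene in the same clusters (other bars, horizontal axis 0 to 100%). Cluster 0 holds 80.7% of the Inhba reads, cluster 9 holds 81.8% of the Cfc1 and 74.9% of the Cer1 reads, and clusters 1 and 2 hold most of the Nodal and Lefty reads.

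Cluster 2 also held 428 cells with the primed tag, which allows d8 and primed tags of 1 cluster to be set side by side. Whether the primed-tagged cells of clusters 1, 2 and 9 were primed cells was not tested. Lefty1 was at 1196 CPM in d8 and 992 in primed cells of the cluster, a 1.21-fold difference (1.17 to 1.24). Tdgf1 was at 472 and 381 CPM, Nodal at 94.7 and 80.2 CPM and Lefty2 at 97.0 and 69.4 CPM, all higher in d8. Between all d8 and all primed cells these 4 genes were lower in d8, so the direction within cluster 2 was the opposite. In cluster 1, Tdgf1 was 1.64-fold (1.52 to 1.76), Lefty1 1.29-fold and Lefty2 1.66-fold lower in d8 cells, and Nodal was at 87.0 CPM in d8 and 81.3 in primed cells.

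Cfc1 and Cer1 were together in cluster 9. This cluster was mesendoderm-like, with 7 of 8 markers raised (Eomes, Gsc, Mixl1, Lhx1, Foxa2, Sox17 and Hhex), and 5 of 7 epithelial markers were raised as well. It held 7.16% of the d8 cells with 81.8% of the Cfc1 and 74.9% of the Cer1 reads, and 4.0% of the primed cells with 65.6% and 74.9%. Cfc1 was at 255 CPM (246 to 264) in the cluster and reached at most 9.73 CPM in the other 14 clusters of 100 or more cells. Cer1 was at 153 CPM (146 to 160), with 7.17 CPM in the next, the notochord-like cluster 10. In d8 cells of cluster 9, Cfc1 was at 282 CPM against 150 in its primed cells, a 1.88-fold difference (1.61 to 2.22), and Cer1 was at 160 and 168 CPM. Prss40, which overlaps Cfc1, was at 19.4 CPM in cluster 9 and at 0 to 1.36 CPM in the other clusters of that size. Lefty1 (642 CPM) and Nodal (53.0 CPM) were also above background in cluster 9, whereas Pou5f1 was at 34.9 CPM, below its 39.8 CPM in the macrophage-like cluster.

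**Figure D4:**
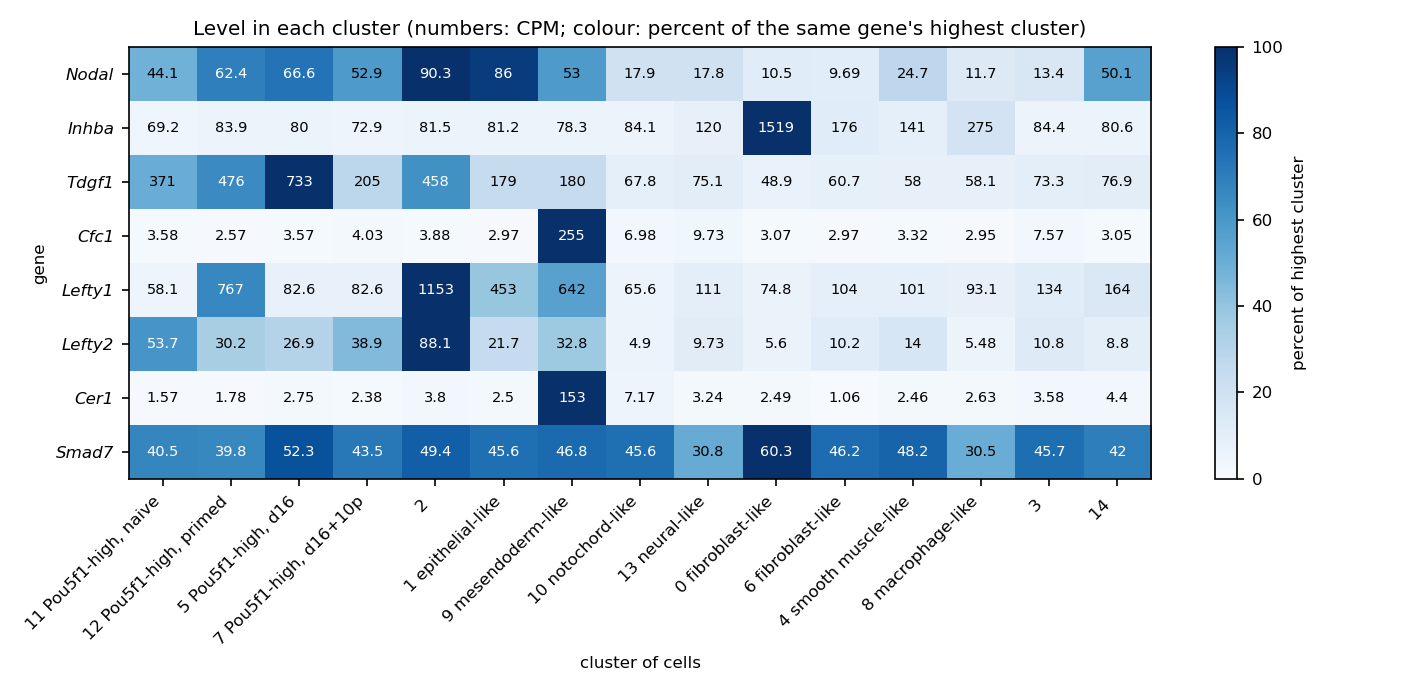
Level in CPM (numbers) of each gene (rows) in the 15 clusters with 100 or more cells (columns), coloured by percent of the highest cluster of the same gene. Cfc1 and Cer1 peak in cluster 9 (255 and 153 CPM), Inhba in cluster 0 (1519 CPM), Tdgf1 in cluster 5 (733 CPM) and Nodal, Lefty1 and Lefty2 in cluster 2, while Smad7 stays within 30.5 to 60.3 CPM.

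Single cells of the primed and d8 populations were then examined for pairs of members. Thinned to 5000 reads, 1555 primed and 8872 d8 cells were deep enough, and 271 and 755 shallower cells were left out. The number of cells with reads of both genes was divided by the number that the 2 shares would give if unrelated. In d8 cells 725 cells had both Nodal and Lefty1, 1.67 times the number for unrelated genes (1.55 to 1.80). Of the cells with a Nodal read 57.6% had a Lefty1 read, against 30.6% of those without. The ratio was 1.57 (1.44 to 1.71) for Nodal and Tdgf1, 1.39 (1.31 to 1.47) for Tdgf1 and Lefty1 and 1.72 (1.52 to 1.95) for Lefty1 and Lefty2. Ligand, co-receptor and antagonists of Nodal were thus found in the same d8 cells more often than their shares alone would give. For Lefty1 and Lefty2, reads from their shared stretches could add to the ratio, in d8 and in primed cells, and this was not tested.

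Inhba stood apart from them. Its ratio in d8 cells was 0.76 (0.69 to 0.84) with Nodal, 0.84 (0.79 to 0.89) with Lefty1 and 0.87 (0.82 to 0.93) with Tdgf1. Cfc1 and Cer1 were found together in 139 d8 cells, 9.10 times the number for unrelated genes (7.65 to 10.8), and of these pairs 134 were in cluster 9. Pairs with Smad7 were between 0.85 and 1.07 in d8 cells, and each of their intervals included 1.

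In primed cells the ratio was 1.43 (1.23 to 1.65) for Nodal and Lefty1, 1.49 (1.27 to 1.73) for Nodal and Tdgf1, 1.34 (1.23 to 1.47) for Tdgf1 and Lefty1 and 1.66 (1.31 to 2.06) for Lefty1 and Lefty2. Both Cfc1 and Cer1 were in 10 primed cells, 8.53 times the number for unrelated genes (4.09 to 15.7). Within the primed home cluster the first 3 ratios were 1.04 (0.82 to 1.30), 1.07 (0.85 to 1.33) and 1.03 (0.91 to 1.16), and each interval included 1. Of these Pou5f1-high cells 77.8% had Lefty1 and 78.7% Tdgf1, and 258 of 409 had both. At such shares the ratio cannot rise far above 1, so these values do not show whether the genes were related within the cluster. Within cluster 2 of the d8 cells they were 1.27 (1.12 to 1.44), 1.32 (1.14 to 1.52) and 1.23 (1.12 to 1.35), and within cluster 1 of the d8 cells 1.29 (1.14 to 1.45), 1.15 (1.00 to 1.32) and 1.13 (1.01 to 1.25). The ratios over all d8 cells were 1.67, 1.57 and 1.39, but the shares differed too: Lefty1 was in 63.1% of thinned d8 cells of cluster 2 and in 34.4% of all d8 cells, which lowers the ratio that can be reached. For Cfc1 and Cer1 the ratio in the d8 cells of cluster 9 was 1.31 (1.10 to 1.55).

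**Figure D5:**
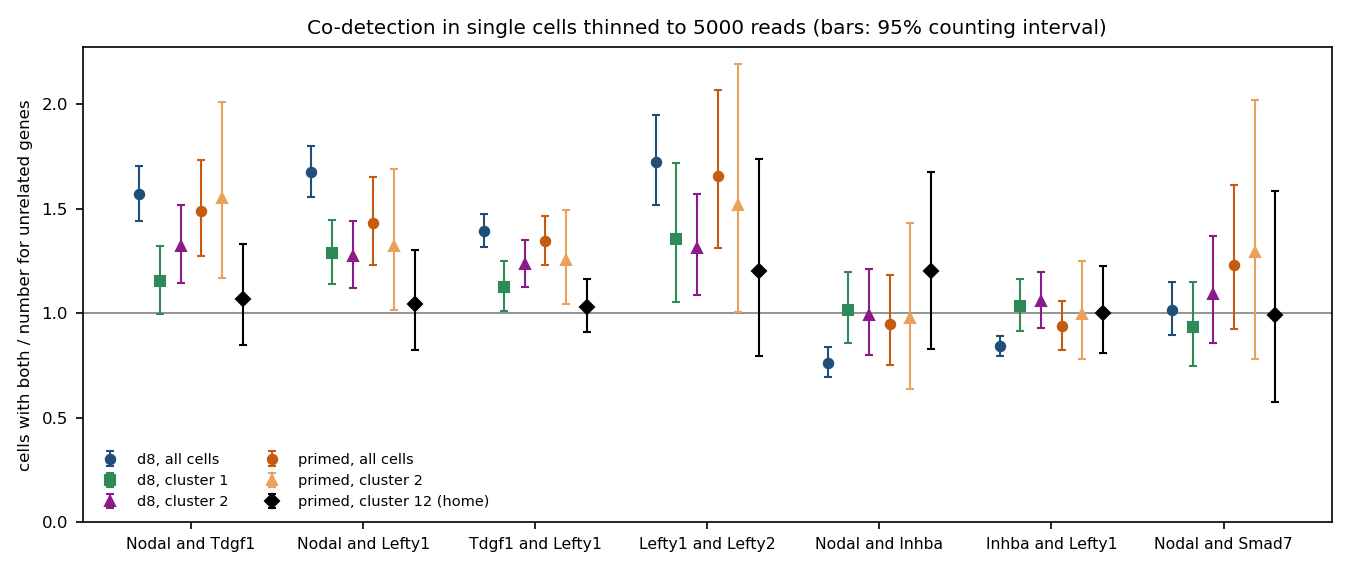
Cells with reads of both genes over the number for unrelated genes (vertical axis; 1 means unrelated) for 7 pairs, in d8 and primed cells and in their clusters, with 95% counting intervals. Pairs of Nodal, Tdgf1 and the Lefty genes lie above 1 over all d8 and all primed cells, while in the primed home cluster, where Lefty1 and Tdgf1 are in most cells and the ratio is bounded near 1, the intervals include 1. Inhba lies below 1 with Nodal and Lefty1 over all d8 cells.

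The genes with the most similar pattern across single cells were ranked by Pearson r of log reads per 10000, as a description, since all cells share 1 library and their clusters. Lefty1 had Tdgf1 among its 5 most similar genes in both populations, with r = 0.46 over 1826 primed and 0.39 over 9627 d8 cells. Tdgf1 was closest in primed cells to Gm19792 (r = 0.55) and Pou5f1 (r = 0.51). Nodal was closest to Lefty1 in both populations (r = 0.35). Inhba was closest in d8 cells to Lox (r = 0.63) and Bgn (r = 0.62), both genes of the extracellular matrix. For Smad7 no gene reached r = 0.2, and Cfc1 and Cer1 had reads in too few cells to be ranked.

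At d16, 5 of 8 members were past 2-fold against d8, Tdgf1 higher and Inhba, Cfc1, Lefty1 and Cer1 lower, where 8.52% of 10930 genes were higher and 3.68% lower. The median log2 ratio of the 8 was -0.91, against 0.03 over all genes tested. Tdgf1 was 2.53-fold higher (2.48 to 2.58). Inhba was 3.99-fold (3.89 to 4.09), Cer1 3.63-fold (3.11 to 4.26), Cfc1 2.996-fold (2.68 to 3.36) and Lefty1 2.59-fold (2.52 to 2.65) lower. The d16 cells held 1.41% of cells in cluster 0 and 1.51% in cluster 9, against 22.6% and 7.16% of the d8 cells. Without the Dppa5a-high cells described next, 6 members were past 2-fold, all lower at d16: Nodal (2.43-fold) and Lefty2 (2.27-fold) joined, and Tdgf1 was 1.55-fold lower (1.49 to 1.61) rather than higher. Of all genes tested in that setting, 8.96% were higher and 2.84% lower. Nodal and Lefty2 reads were then in 5.86% and 2.51% of thinned d16 cells, near background. Of the listed genes 32 were tested, with 2 higher and 7 lower past 2-fold and a median log2 ratio of -0.34. Pcsk6 (5.87-fold) and Gdf3 (5.47-fold) were higher, and Inhbb (2.95-fold), Lhx1 (2.68-fold) and Fgf8 (2.51-fold) were among those lower.

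The d16 cells were split by their own level of Dppa5a, a naive pluripotency gene. At or above 1000 CPM were 1278 cells and below it 3037, with 184 cells from 1000 to under 2000 CPM and 111 from 500 to under 1000. Of the Dppa5a-high cells 1137 were in the d16 home cluster, and Pou5f1 was at 345 CPM in them and 39.9 CPM in the others. Of 6 members tested, 3 were higher past 2-fold in the Dppa5a-high cells and 0 lower, where 11.2% of 11348 genes were higher and 16.6% lower. Tdgf1 was at 764 against 86.8 CPM, an 8.81-fold difference (8.47 to 9.16), and 82.0% against 21.6% of thinned cells had a read. Nodal was at 67.1 against 17.8 CPM (3.76-fold, 3.42 to 4.14), with a read in 24.6% against 5.86%. Lefty2 was at 26.7 against 9.87 CPM (2.70-fold, 2.36 to 3.10), a call that was lost with a pseudocount of 10 CPM. A Lefty2 read was in 7.27% against 2.51% of thinned cells. In the other d16 cells the shares were near the background of 4.58% for Nodal and 2.77% for Lefty2, so both folds are over a level near background.

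Lefty1 went the other way, at 78.4 CPM in the Dppa5a-high cells and 151 in the others, with 22.6% and 24.7% of thinned cells having a read. Both shares are near the background of 22.8%. Inhba was at 87.2 and 141 CPM, and Smad7 at 52.4 and 44.4 CPM. Among the 31 listed genes tested, 2 were higher, Gdf3 (10.2-fold) and Pcsk6 (5.86-fold), and 7 lower past 2-fold, with a median log2 ratio of -0.46 against -0.03 over all genes tested. Of the lower genes, Foxa2 (4.30-fold), Tgfb2 (3.62-fold), Tgfb3 (3.52-fold) and the receptor gene Tgfbr2 (3.10-fold) had the largest ratios.

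Setting the Dppa5a-high d16 cells against primed cells compares the cells high for a naive marker with all cells of the primed tag. This comparison shares the primed cells with those above. As at d8, AICAR and LIF cannot be told apart from the change of medium. Of 6 members tested 1 was higher past 2-fold, Tdgf1 (2.34-fold, 2.28 to 2.41), and 1 lower, Lefty1 (7.92-fold, 7.53 to 8.34), where 6.49% of 10716 genes were higher and 4.78% lower. Between the home clusters Tdgf1 was 1.61-fold higher in d16 (1.56 to 1.66), no longer past 2-fold, and Lefty1 was 9.75-fold lower (9.22 to 10.3), where 9.54% of 10355 genes were higher and 3.85% lower. Nodal was 1.11-fold (1.01 to 1.23) higher in the d16 home cluster, and Lefty2 was at 26.9 against 30.6 CPM, with the interval of their ratio including 1. Nodal was thus at a similar level in both sets of Pou5f1-high cells, with Lefty1 at background in one and at 767.5 CPM in the other. The median log2 ratio of the listed genes was -0.49, against -0.04 over all genes tested. Of the 30 tested 2 were higher, Gdf3 (9.16-fold) and Pcsk6 (6.66-fold), and 6 lower, led by Fgf8 (8.43-fold), Fst (5.71-fold), T (4.77-fold) and Lhx1 (4.17-fold).

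After 10 passages in 2iL no member was past 2-fold against naive cells, 0 of 6 tested, where 0.862% of 10093 genes were higher and 0.614% lower. Of 29 listed genes 0 were called in either direction. Tdgf1 was the member nearest to 2-fold, at 177 CPM in d16+10p and 341 in naive cells, 1.93-fold lower (1.86 to 2.01). Between the home clusters it was at 167 and 375 CPM, 2.25-fold lower (2.16 to 2.35), past 2-fold as were 1.19% of genes in that direction and 1.07% in the other, and 47.2% against 74.2% of thinned cells had a read. Lefty2 was 1.34-fold lower (1.22 to 1.47), Nodal 1.28-fold higher (1.17 to 1.40), Inhba 1.11-fold lower and Lefty1 1.12-fold lower, while Cer1, Cfc1 and Smad7 did not differ beyond their intervals. Within the reversion lineage Tdgf1 was at 478 CPM in the primed, 769 in the d16 and 167 in the d16+10p home cluster, and Lefty1 at 767.5, 78.7 and 80.3 CPM.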

How the data were processed

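Cells of 5 populations were tagged, pooled and captured with BD Rhapsody. The authors trimmed reads with cutadapt 2.10, mapped them with Bowtie2 2.3.4.1 (per the processing notes) to Ensembl cDNA and ncRNA of GRCm38.p6, filtered barcodes by knee plot, assigned tags and removed cells with ambiguous tags as doublets. No doublet caller was run here. The deposited values are raw counts, treated as reads because no collapsing of molecules is described. Intervals cover counting error only. The population of a cell is the tag in its column name, matched to the tag list of the series.

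CPM, shares (exact Clopper-Pearson intervals) and ratios (exact conditional binomial intervals, 95%) were computed with Python 3 and scipy. Clusters were made with Seurat 5.3.0 in R 4.3.3 (2000 variable genes without the members, 1993 used, 56 components, 50 neighbours, resolution 0.8; 18 clusters), and a difference from the study may come from this rebuilding. Clusters are Pou5f1-high at 25% or more of the highest Pou5f1 level with a read in 75% or more of cells. Ratios were tested on simulated sums. Members and lists were chosen with earlier results of these data known. Named genes were all members, up to 4 listed genes of largest ratio per direction and comparison, up to 5 most similar genes with r of at least 0.2, Dppa5a and Pou5f1. Some genes that this rule takes are not reported here, though list counts include them. Alternatives are given in the closing section.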

Additional observations from a re-analysis of the deposited data

How the results depend on the processing

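Counts of members past 2-fold moved by over 1.5 times in 6 settings. Without the filter on low genes the count was 2 (Cer1 added) for primed against naive. Of all genes with a read 4.97% were then past 2-fold, against 8.25% with the filter. For Dppa5a-high d16 against primed the count without the filter was 4 (Cfc1 and Cer1 added), and the share of all genes is not reported here. With a pseudocount of 10 CPM the count was 3 for d16 against d8, where 5.92% of all genes were past 2-fold, against 12.2% with 1 CPM. With home clusters it was 5 for d8 against primed (Cfc1, Lefty1 and Cer1 added), 1 for d16 against primed (Tdgf1 lost) and 1 for d16+10p against naive (Tdgf1 added), while the share of all genes past 2-fold was 23.5, 13.4 and 2.27%, against 6.81, 11.3 and 1.48% over all cells. Of 368 alternative member ratios, 212 stayed within the counting interval and 1 called ratio reversed: Tdgf1 at d16 against d8, at -0.62 (log2) without the Dppa5a-high cells, a setting chosen after the data were seen. TMM scaling moved the median of all genes by -0.10 (log2) for d16 against d8 and left the 5 calls as they were, and it added Cfc1 for d8 against primed (log2 ratio 1.04).

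Thinned to 10000 reads, the ratios of co-detection were lower: 1.14, 1.19, 1.16 and 1.23 in primed and 1.19, 1.40, 1.31 and 1.42 in d8 cells for Tdgf1 with Lefty1, Nodal with Lefty1, Nodal with Tdgf1 and Lefty1 with Lefty2, and 7.01 in d8 cells for Cfc1 with Cer1. Unthinned, the d8 values were 1.19, 1.34, 1.34, 1.35 and 4.78. In the primed home cluster, with cells thinned as in the Results, the ratios of the same pairs were 1.03, 1.04, 1.07, 1.20 and 0. The 0 for Cfc1 with Cer1 does not show that they were apart. Of 409 thinned cells there, only 3 had a Cfc1 read and 1 had a Cer1 read. The cause of the lower ratios was not tested. With the members among the variable genes, the highest cluster level was 1189 CPM for Lefty1 and 104 for Lefty2. At resolution 0.4 it was 1059 for Lefty1, 83.8 for Lefty2, 278 for Cfc1 and 166 for Cer1. No paired analysis was possible because each population was 1 sample.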
